A study of Mus musculus with 10 samples.

Results

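Expression of 8 chitinase-like and resistin-like genes was examined in the lungs of 10 female BALB/c mice by RNA-seq. The genes were chosen by symbol and comprise 5 chitinase-like genes (Chil1, Chil3, Chil4, Chia1 and Chit1) and 3 resistin-like genes (Retnla, Retnlb and Retnlg). They account for 8 of the 24394 gene symbols and 10 of the 34943 RefSeq transcript rows in the table, because Chit1 has 3 rows and every other member has 1, so that its single row and its sum per gene are the same value. Saline mice (n = 3) were given saline in place of the allergen. OVA mice (n = 3) were sensitised with injected ovalbumin, an egg protein, in the adjuvant alum and then challenged with ovalbumin through the nose, a model of allergic asthma. Herb mice (n = 4) went through the same ovalbumin protocol and were also fed an ethanol extract of Descurainia sophia seeds, which the study calls DSE. Ovalbumin was thus common to OVA and Herb, and no library came from a mouse that received the extract without ovalbumin. All mice were young adults of 1 inbred strain, and the samples are whole lung, so that fewer cells of a type and less RNA per cell cannot be told apart.

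Chitinases cut chitin, the polymer of insect and fungal surfaces, and the chitinase-like proteins keep the fold of these enzymes but have lost the catalytic activity. Resistin-like molecules are small secreted proteins rich in cysteine. In mice, members of both families are classic products of epithelial cells and macrophages exposed to IL-4 and IL-13, the cytokines that act through the transcription factor STAT6 in allergic inflammation. Chia1 (acidic mammalian chitinase) and Chit1 (chitotriosidase) encode active enzymes. Chil1 (BRP-39), Chil3 (Ym1) and Chil4 (Ym2) encode chitinase-like proteins without activity. Retnla (RELM-alpha, FIZZ1), Retnlb (RELM-beta) and Retnlg (RELM-gamma) are named after the hormone resistin.

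The members lie in 3 clusters of neighbouring genes in the mouse genome (GRCm38.p6). Chit1 (134111242 to 134151541) and Chil1 (134182156 to 134190031) are within 78.8 kb on chromosome 1. Chia1 (106113382 to 106132118), Chil3 (106147554 to 106167564) and Chil4 (106201491 to 106219479) are within 106 kb on chromosome 3. Retnlb (48816856 to 48818892), Retnla (48842609 to 48844461) and Retnlg (48872608 to 48874498) are within 57.6 kb on chromosome 16. The transcripts of Chil3 (NM_009892) and Chil4 (NM_145126) are 94.4% identical, and 8.27% of the 76-base windows of either one, the length of the sequencing reads, occur in the other. Of the Chil3 windows 13.7% and of the Chil4 windows 9.49% occur in some other gene, the additional match being the predicted gene Gm6522. The values of this pair are therefore uncertain to the extent that shared reads were divided between them. No 76-base window of the other members was found unchanged in another gene, including Retnla and Retnlg, whose transcripts are 84.5% identical. Only exact matches were sought, so this cannot show whether reads aligned with mismatches were placed on the wrong member.

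The 250 bases in front of the annotated start are shown for 4 members, as a pair from each of the clusters on chromosomes 16 and 3, because the members of each pair are alike in sequence, while on the deposited scale Retnla and Chil4 were called in OVA vs. Saline and Retnlg and Chil3 were not. The sequences are those of RefSeq on GRCm38.p6, read 5′ to 3′ in the direction of transcription. They lie at chr16:48842359-48842608 (plus strand) for Retnla, chr16:48872358-48872607 (plus strand) for Retnlg, chr3:106167565-106167814 (minus strand) for Chil3 and chr3:106219480-106219729 (minus strand) for Chil4. Capitals mark TTCNNNNGAA, the form of STAT site that STAT6 prefers, in Retnla and Retnlg, and TTCNNNGAA, the form common to several STAT proteins, in Chil3 and Chil4.
Retnla: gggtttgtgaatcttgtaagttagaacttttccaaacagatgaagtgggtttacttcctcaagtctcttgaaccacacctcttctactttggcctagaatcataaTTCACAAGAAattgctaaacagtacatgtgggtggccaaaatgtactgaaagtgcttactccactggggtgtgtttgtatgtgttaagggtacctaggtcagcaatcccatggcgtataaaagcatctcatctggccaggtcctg
Retnlg: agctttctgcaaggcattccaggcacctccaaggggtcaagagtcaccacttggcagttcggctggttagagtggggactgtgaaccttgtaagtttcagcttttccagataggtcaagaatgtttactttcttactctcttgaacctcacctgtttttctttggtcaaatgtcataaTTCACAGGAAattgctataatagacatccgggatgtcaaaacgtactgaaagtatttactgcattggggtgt
Chil3: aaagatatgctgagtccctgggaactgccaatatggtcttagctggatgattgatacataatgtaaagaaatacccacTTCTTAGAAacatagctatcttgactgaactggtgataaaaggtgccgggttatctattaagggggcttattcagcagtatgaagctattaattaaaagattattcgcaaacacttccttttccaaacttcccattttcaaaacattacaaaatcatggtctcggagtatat
Chil4: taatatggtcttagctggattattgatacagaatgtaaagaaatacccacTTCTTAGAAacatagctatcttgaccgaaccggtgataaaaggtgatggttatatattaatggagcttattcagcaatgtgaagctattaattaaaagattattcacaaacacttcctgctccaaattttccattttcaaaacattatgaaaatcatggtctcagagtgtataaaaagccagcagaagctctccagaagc

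TTCNNNNGAA spans 145 to 136 bases before the start of Retnla and 72 to 63 bases before the start of Retnlg, and was found in 5.85% of 32851 RefSeq windows of the same 250 bases. TTCNNNGAA spans 172 to 164 bases before the start of Chil3 and 200 to 192 bases before that of Chil4, and was found in 7.02% of the windows. Each of these motifs reads the same on both strands. Where aligned, the windows of Chil3 and Chil4 are 91.4% identical over 220 bases and those of Retnla and Retnlg are 78.9% identical over 175 bases. Neither STAT form was found in the windows of Chil1, Chia1 and Chit1. Retnlb had no window and was not searched for any motif. The TATA box TATAAA was found in Chia1, Chil4 and Retnla (12.4% of all windows). The windows of each pair are offset against each other. Those of Retnlg and Chil3 end before the stretch that matches the end of this box in Retnla and Chil4. They therefore cannot show whether Retnlg and Chil3 lack it. TTGCNNAA, a form of C/EBP site, was found in Chil4, Retnla and Retnlg (9.56% of all windows), and the looser TTNCNNAA, which takes in every TTGCNNAA, was found in Chil1, Chil3, Chil4, Retnla and Retnlg (36.8%). AGGAAG, a form of ETS site, was found in Chil3, Chil4, Chit1 and Retnla (29.5%). All 6 motifs were searched on both strands, and a match is a description of the letters in the window.

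The libraries differed in composition between the groups, which bears on every value below. Estimated depth was 14900000 to 21400000 fragments in Saline, 20300000 to 29400000 in OVA and 14700000 to 21300000 in Herb. Values are FPKM, which divides fragments by transcript length and library size. RefSeq rows of protein-coding genes held 18.5% to 21.3% of the summed FPKM in Saline, 3.36% to 4.68% in OVA and 8.44% to 13.6% in Herb. The sum also includes assembled models without a symbol, which were not sorted by type of gene. The median log2 fold change of the 11205 genes tested was accordingly -0.75 in OVA vs. Saline, 0.48 in Herb vs. OVA and -0.27 in Herb vs. Saline, and it became -0.02, 0.04 and 0.02 when each library was rescaled to a common 75th percentile of its gene sums. Changes are given on the deposited scale and after this rescaling. Genes of alveolar type 2 cells, the source of surfactant, summed to 3407 to 4459 FPKM in Saline, 477 to 831 FPKM in OVA and 1102 to 2012 FPKM in Herb as a check of the tissue label, and genes of stomach and salivary gland summed to 4.05 FPKM or less in every library. An exact 0 in the table can be a failed estimate, since Gapdh, a gene used by every cell, has a 0 in 9 libraries, and such values are given as listed at 0.

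In Saline lungs Chil3 and Chil1 were the most abundant members, at 107 ± 49.2 and 80.5 ± 4.90 FPKM (SD, n = 3), and their libraries overlapped. Retnlg at 22.7 ± 18.6 FPKM and Chia1 at 19.3 ± 4.28 FPKM (SD, n = 3) followed, with overlapping libraries, and Retnla, Chil4, Retnlb and Chit1 were at or near 0. In OVA and in Herb the order was headed by Retnla, whose lowest library lay above the highest library of Chil3, the next gene. In OVA the libraries of Chil3, Chil4, Chil1, Chia1, Retnlg and Retnlb overlapped from each gene to the next. In Herb the libraries of Chil3 lay above those of Chil1, and the libraries of Chil1, Chil4 and Chia1 overlapped from each to the next. All members together held 0.113% to 0.156% of the summed FPKM of RefSeq rows in Saline (mean 0.130%), 0.862% to 4.81% in OVA (mean 2.51%) and 1.22% to 3.96% in Herb (mean 2.81%). Retnla alone made up 76.9% to 89.3% of the members' sum in OVA and 70.3% to 83.0% in Herb.

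**Figure D1:**
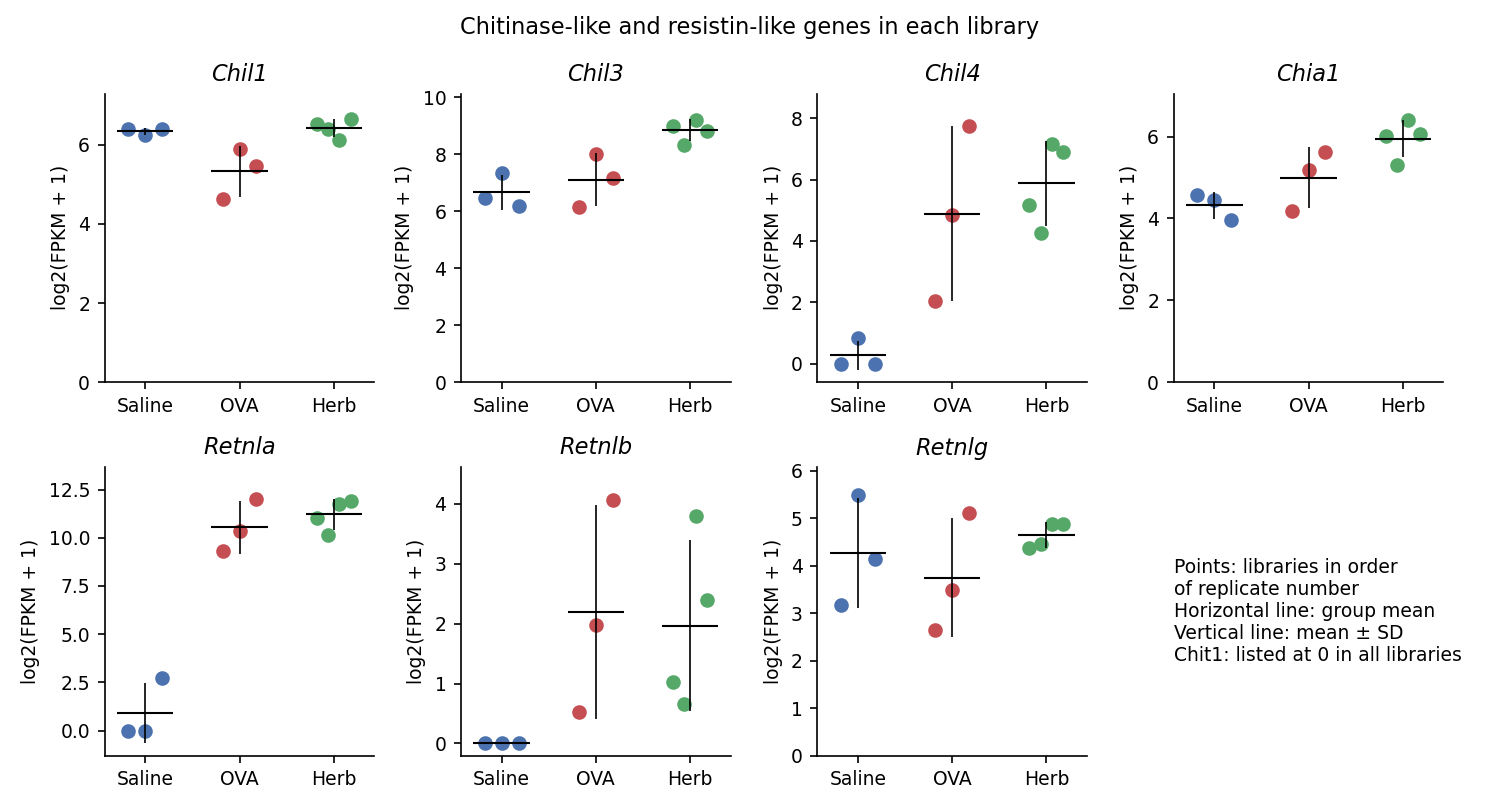
Level of each member on the log2(FPKM + 1) scale (y axis) in the Saline (n = 3), OVA (n = 3) and Herb (n = 4) libraries (x axis). Points are libraries, horizontal lines group means and vertical lines mean ± SD. Retnla was at 0 to 5.61 FPKM in Saline and at 629.9 FPKM or more in all OVA and Herb libraries, whereas the Herb libraries of Chil3, at 319.8 to 593 FPKM, lie above all others of that gene.

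Active chitinases were represented by Chia1. Acidic mammalian chitinase is the main chitin-degrading enzyme of mouse airways and stomach. Chia1 (NM_023186) measured 22.7, 20.7 and 14.5 FPKM in the Saline mice, 17.0, 35.0 and 48.6 in the OVA mice and 63.8, 38.8, 83.8 and 65.3 in the Herb mice. The OVA libraries overlapped with both other groups, and all Herb libraries lay above all Saline libraries. In Herb vs. Saline Chia1 was 3.26 times as high by the ratio of means, or 1.63 ± 0.37 on the log2 scale (standard error, adjusted p from limma = 0.0167), and 1.99 ± 0.37 at a common 75th percentile (adjusted p from limma = 0.0178). Its call was lost without Saline replicate 2 (adjusted p from limma = 0.0545) and without Saline replicate 3 (adjusted p from limma = 0.0593), within a range of 0.00882 to 0.0635 over 19 alternatives. The differences of OVA vs. Saline, 0.67 ± 0.40 (standard error, adjusted p from limma = 0.170), and of Herb vs. OVA, 0.96 ± 0.37 (standard error, adjusted p from limma = 0.0607), did not pass the threshold of 0.05. OVA vs. Saline passed it after rescaling, at 1.66 ± 0.40 (standard error, adjusted p from limma = 0.0108), and without OVA replicate 1 (adjusted p from limma = 0.0246). It also passed at 2.15 under scaling to the protein-coding sum (adjusted p from limma = 0.00237). Under quantile normalization it passed at 2.28 (adjusted p from limma = 0.00471). Herb vs. OVA passed the threshold without Herb replicate 2 (adjusted p from limma = 0.0410) and without OVA replicate 3 (adjusted p from limma = 0.0311).

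Chit1, the chitotriosidase of macrophages, was listed at 0 in all 10 libraries and in each of its 3 rows (NM_001284524, NM_001284525 and NM_027979). No comparison was made for it.

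Chil1, a chitinase-like protein made by macrophages, neutrophils and epithelium, was called lower in OVA than in Saline on the deposited scale. Its transcript (NM_007695) measured 83.6, 74.8 and 83.0 FPKM in the Saline mice, 23.9, 58.6 and 42.9 in the OVA mice and 90.4, 83.8, 69.1 and 99.7 in the Herb mice. Every OVA library was below every Saline and Herb library, and Saline and Herb overlapped. In OVA vs. Saline the log2 difference was -1.02 ± 0.30 (standard error, adjusted p from limma = 0.0143), not far from the median of all genes, and it was -0.01 ± 0.23 after rescaling (adjusted p from limma = 0.983). The value was 0.50 when libraries were scaled to the sum of protein-coding genes (adjusted p from limma = 0.0883). After quantile normalization it was 0.84 (adjusted p from limma = 0.0111), which is a call as higher in OVA. Herb vs. OVA gave 1.1 ± 0.28 (standard error, adjusted p from limma = 0.0135), which became 0.46 ± 0.21 after rescaling (adjusted p from limma = 0.204), with a 95% confidence interval of -0.02 to 0.95. Herb vs. Saline gave 0.08 ± 0.28 (standard error, adjusted p from limma = 0.855) and 0.46 ± 0.21 after rescaling to the 75th percentile (adjusted p from limma = 0.176). It passed the threshold as higher in Herb at 0.75 under scaling to the protein-coding sum (adjusted p from limma = 0.0333) and at 0.88 under quantile normalization (adjusted p from limma = 0.0315).

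Chil3 is the abundant chitinase-like protein that crystallises in inflamed mouse lungs, and alveolar macrophages make it also in healthy lungs. On the deposited scale it was called higher in Herb than in both other groups. Chil3 measured 87.5, 163 and 71.0 FPKM in the Saline mice, 69.7, 256 and 142 in the OVA mice and 514, 319.8, 593 and 454 in the Herb mice. The lowest Herb library lay above the highest OVA library, whereas Saline and OVA overlapped. Mean Chil3 in Herb was 3.02 times that of OVA, higher by 1.74 ± 0.45 on the log2 scale (standard error, adjusted p from limma = 0.0150). After rescaling this was 1.1 ± 0.44 (standard error, adjusted p from limma = 0.154), with a 95% confidence interval of 0.10 to 2.09, and without OVA replicate 1 it was 1.26 on the deposited scale (adjusted p from limma = 0.0505), the adjusted p ranging from 0.00739 to 0.285 over 19 alternatives. In Herb vs. Saline Chil3 was 4.38 times as high, with a log2 value of 2.18 ± 0.45 (standard error, adjusted p from limma = 0.0128) that was 2.55 ± 0.44 after rescaling (adjusted p from limma = 0.0148), and it passed the threshold under all 19 alternatives. OVA vs. Saline gave 0.44 ± 0.48 (standard error, adjusted p from limma = 0.458) and, after rescaling, 1.46 ± 0.47 (standard error, adjusted p from limma = 0.0350). It was 1.97 under scaling to the protein-coding sum (adjusted p from limma = 0.00654) and 2.15 under quantile normalization (adjusted p from limma = 0.00800). Without OVA replicate 2 the value on the deposited scale was -0.015.

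Chil4, the close copy of Chil3, is a product of airway epithelium in allergic lungs. Its values in FPKM were 0, 0.772 and 0 for the Saline mice, 3.16, 27.4 and 215 for the OVA mice and 35.3, 18.4, 142 and 119 for the Herb mice. All ovalbumin-exposed libraries were above all Saline libraries, and the OVA libraries, which differed by up to 67.9 times among themselves, spanned those of Herb. Its log2 difference was 4.61 ± 1.28 (standard error, adjusted p from limma = 0.0117) in OVA vs. Saline, rank 4 of all genes tested, and 5.60 ± 1.2 (standard error, adjusted p from limma = 0.0140) in Herb vs. Saline, rank 3. The corresponding values after rescaling were 5.22 ± 1.32 (standard error, adjusted p from limma = 0.0131) and 5.63 ± 1.23 (standard error, adjusted p from limma = 0.0236), and both passed the threshold under all 19 alternatives. Leaving out OVA replicate 3 gave 3.17 in OVA vs. Saline, and leaving out OVA replicate 1 gave 6.02. With a pseudocount of 0.1 in place of 1 the values of both comparisons were 7.03 and 8.13, so that the size of the increase over libraries listed at 0 depends on the pseudocount. In Herb vs. OVA the value was 1.00 ± 1.2 (standard error, adjusted p from limma = 0.519), with a 95% confidence interval of -1.71 to 3.71 that covers both a decrease and an increase, and it was -0.41 without OVA replicate 1.

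Retnla is an early and abundant product of alternatively activated macrophages and allergic airway epithelium. Its values in FPKM were 0, 0 and 5.61 for the Saline mice, 629.9, 1297 and 4155 for the OVA mice and 2110.4, 1142, 3489 and 3771 for the Herb mice. No Saline library came near the exposed libraries, and OVA and Herb overlapped. Among protein-coding genes Retnla (NM_020509) was second only to Scgb1a1, the major club cell secretory protein, in all 3 OVA libraries and in 3 Herb libraries, and ranked 3 in Herb replicate 2. Its log2 fold change of 10.31 ± 0.83 in Herb vs. Saline (standard error, adjusted p from limma = 0.000854) was the highest of all genes tested, as was that of 9.65 ± 0.89 in OVA vs. Saline (standard error, adjusted p from limma = 0.000145). The former was 10.39 ± 0.80 after rescaling (adjusted p from limma = 0.000844). With a pseudocount of 0.1 in place of 1 the values were 12.59 in Herb vs. Saline and 11.93 in OVA vs. Saline. The size of the increase over Saline libraries listed at 0 thus depends on the pseudocount. Herb vs. OVA gave 0.66 ± 0.83 (standard error, adjusted p from limma = 0.542), with a 95% confidence interval of -1.23 to 2.54, and 0.01 ± 0.80 after rescaling (adjusted p from limma = 0.996), with an interval of -1.81 to 1.83. These intervals include large changes in either direction and do not show that the groups were alike.

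Retnlb, known as a goblet cell product of gut and airway, was the least abundant of the detected members. It was listed at 0 for every Saline mouse and had 0.433, 2.95 and 15.8 FPKM in the OVA mice and 1.05, 0.572, 12.8 and 4.24 in the Herb mice. All exposed libraries were above 0, and the fewest estimated fragments, 5.87, were in Herb replicate 2. The log2 fold change of OVA vs. Saline, 2.19 ± 0.96 (standard error, adjusted p from limma = 0.0742), did not pass the threshold, and with a pseudocount of 0.1 it was 4.88 (adjusted p from limma = 0.0109), within a range of 0.0109 to 0.247 over 19 alternatives. It also passed without OVA replicate 1 (adjusted p from limma = 0.0247) and without Herb replicate 3 (adjusted p from limma = 0.0468). Herb vs. Saline gave 1.97 ± 0.90 (standard error, adjusted p from limma = 0.132), which passed with a pseudocount of 0.1 at 4.68 (adjusted p from limma = 0.0342), and Herb vs. OVA -0.22 ± 0.90 (standard error, adjusted p from limma = 0.855), with a 95% confidence interval of -2.25 to 1.80.

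Retnlg, which in mice is made by bone marrow and neutrophils, measured 8.03, 43.6 and 16.6 FPKM in the Saline mice, 5.31, 10.2 and 33.7 in the OVA mice and 19.8, 20.9, 28.4 and 28.3 in the Herb mice. The 3 groups overlapped, and the Herb libraries were the most alike, with an SD of 4.66 FPKM compared with 18.6 in Saline and 15.2 in OVA. No comparison of Retnlg passed the threshold, with log2 fold changes of -0.51 ± 0.67 in OVA vs. Saline (standard error, adjusted p from limma = 0.533), 0.89 ± 0.63 in Herb vs. OVA (standard error, adjusted p from limma = 0.271) and 0.38 ± 0.63 in Herb vs. Saline (standard error, adjusted p from limma = 0.683). Genes of neutrophils summed to 36.6 to 449 FPKM in Saline, 6.94 to 24.8 FPKM in OVA and 28.3 to 128 FPKM in Herb, and their part in the values of Retnlg was not tested. The sums depend on S100a9, which ranged from 0 to 416 FPKM in Saline, 0 to 0.952 in OVA and 0 to 60.7 in Herb. Its zeros can be failed estimates.

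Taking the members as a set, Retnla and Chil4 were called higher in OVA vs. Saline (adjusted p under 0.05), where 3.28% of all genes were called higher, and Chil1 was called lower, as were 57.9% of all genes. The groups did not overlap with OVA higher for Retnla, Chil4 and Retnlb (4.68% of all genes) and with OVA lower for Chil1 (63% of all genes). In Herb vs. OVA Chil1 and Chil3 were called higher, as were 44% of all genes, and no member was called lower (0.446% of all genes). The groups did not overlap with Herb higher for the same 2 members (49.6% of all genes) and with Herb lower for none (0.651% of all genes). In Herb vs. Saline Retnla, Chil4, Chil3 and Chia1 were called higher, compared with 3.32% of all genes, and none was called lower (22.7% of all genes). Here the groups did not overlap with Herb higher for these 4 and Retnlb (6.94% of all genes) and with Herb lower for none (36.6% of all genes). Chil4 and Retnlb reached the minimum mean of 1 FPKM only through the exposed libraries. OVA vs. Saline and Herb vs. OVA share the OVA libraries, and OVA vs. Saline and Herb vs. Saline share the Saline libraries.

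The direction of calls over all genes followed the scaling, and so did the calls of members in Herb vs. OVA. Of the 6853 calls in OVA vs. Saline 5.37% were higher, compared with 48.9% of 4595 calls after rescaling to the 75th percentile, 81.1% of 5229 calls after scaling to the protein-coding sum and 52.1% of 4004 calls after quantile normalization. For Herb vs. OVA 99% of 4982 calls were higher, compared with 53.4% of 73 calls after rescaling, 11.1% of 593 calls after scaling to the protein-coding sum and 35.7% of 157 calls after quantile normalization. In Herb vs. Saline 12.7% of 2921 calls were higher, compared with 53.1% of 1602 calls after rescaling to the 75th percentile, 86.7% of 2406 calls after scaling to the protein-coding sum and 54.6% of 841 calls after quantile normalization. After rescaling to the 75th percentile, the called members were Retnla, Chil4, Chia1 and Chil3 in OVA vs. Saline and the same 4 genes in Herb vs. Saline, all higher. None was called by limma in Herb vs. OVA, where Chil3 was the 1 member with an unadjusted p under 0.05.

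**Figure D2:**
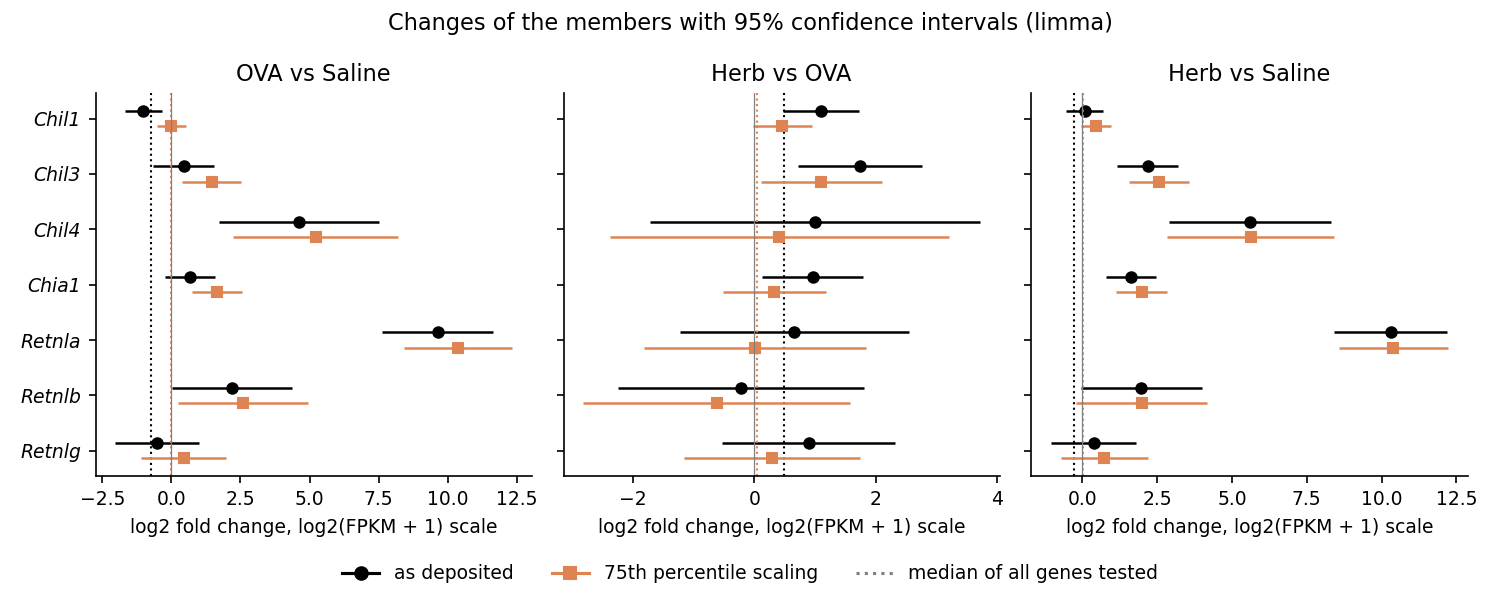
Log2 fold change of each member with its 95% confidence interval from limma (x axis, log2(FPKM + 1) scale) in the 3 comparisons, as deposited (black circles) and after rescaling to the 75th percentile (orange squares). Dotted lines mark the median of all 11205 genes tested, -0.75, 0.48 and -0.27 as deposited. Retnla and Chil4 lie to the right of 0 on both scales in both comparisons with Saline, and the intervals of Herb vs. OVA include 0 after rescaling for every member but Chil3.

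Ratios between members within a library do not depend on the scaling between libraries. Chil3 was 0.856 to 2.18 times as abundant as Chil1 in Saline, 2.92 to 4.37 times in OVA and 3.81 to 8.59 times in Herb. The Saline libraries overlapped with neither exposed group, whereas OVA and Herb overlapped. In OVA the ratio was 2.78 times that of Saline (two-sided exact permutation p = 0.1, which 3 against 3 cannot go below) and in Herb it was 4.32 times that of Saline (exact permutation p = 0.0571, which 3 against 4 cannot go below). Herb vs. OVA gave 1.55 times (exact permutation test, p = 0.114), and all 3 had an adjusted p of 0.309 over 9 ratio tests (exact permutation). Chia1 was 0.121 to 0.144 times as abundant as Chil3 in the 4 Herb libraries, a narrow range, compared with 0.127 to 0.260 in Saline and 0.137 to 0.343 in OVA. No other ratio test had a p under 0.171 (exact permutation).

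The ratio of Chil4 to Chil3 was 0.0454, 0.107 and 1.51 in OVA and 0.0686, 0.0575, 0.239 and 0.261 in Herb, so that Chil4 exceeded Chil3 in OVA replicate 3 alone. On the log2 scale the mean ratio in Herb was lower than in OVA by 0.64, a difference smaller than the spread between mice (exact permutation p = 0.686), and the sign turned, to 0.84, without OVA replicate 3. Retnla was 119, 128 and 123 times as abundant as Retnlg in OVA and 107, 54.7, 123 and 133 times in Herb. Herb replicate 2 was the lowest of these 7 libraries, and the others ranged from 107 to 133, although both genes differed by several times between these libraries. Whether misplaced reads of Retnla entered the values of Retnlg was not tested.

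**Figure D3:**
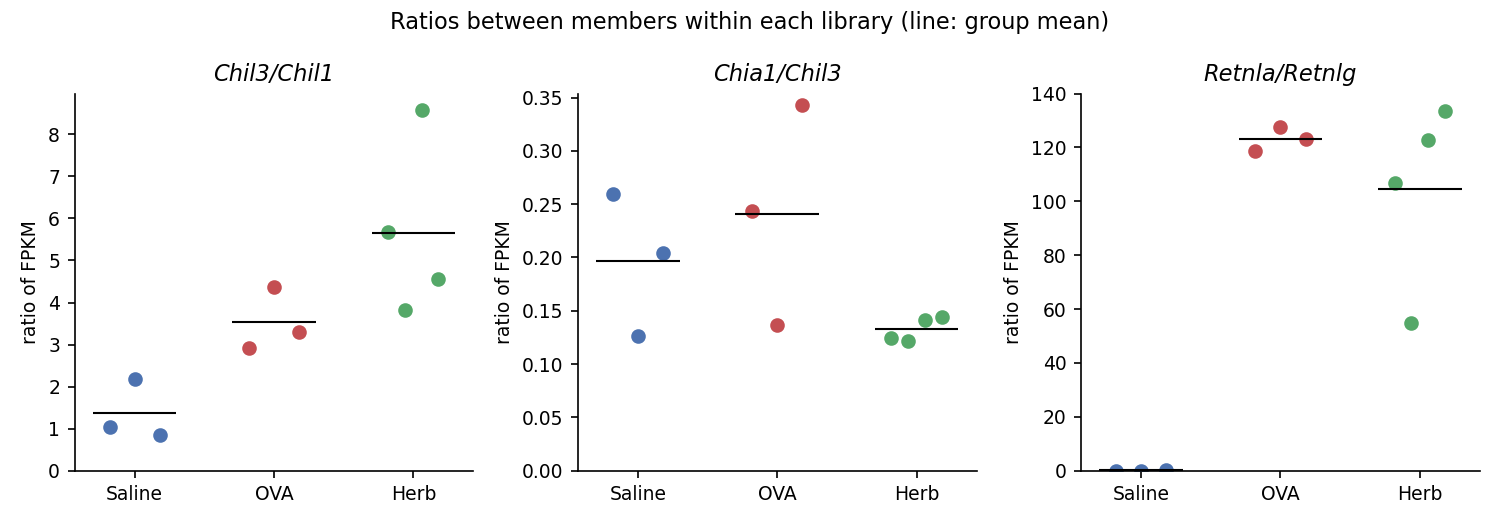
Ratio of FPKM between members within each library (y axis, linear from 0) for Chil3 to Chil1, Chia1 to Chil3 and Retnla to Retnlg, by group (x axis); points are libraries and lines group means. The ratio of Chil3 to Chil1 was 2.18 or less in Saline and 2.92 or more in all exposed libraries, and Retnla was 54.7 to 133 times as abundant as Retnlg in exposed libraries.

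Individual exposed mice ranked alike for several members. The 7 OVA and Herb libraries were chosen after the data were seen, because Retnla, Chil4 and Retnlb were at or near 0 in Saline. Chil3, Chil1, Retnlg and Chia1 were not, and their pairs were taken over the same libraries. On the deposited scale OVA replicate 1 was the lowest of these libraries for all 7 detected members. It also had the largest factor for rescaling to the 75th percentile, 1.76, and ranks after rescaling are not given. OVA replicate 3 was the highest for Chil4, Retnla, Retnlb and Retnlg, whereas Herb libraries were the highest for Chil1, Chil3 and Chia1. Chil4 and Retnla, which lie on different chromosomes, correlated with Pearson r = 0.98 (exact permutation p = 0.000397, adjusted over 21 pairs p = 0.00833) and Spearman rho = 0.96 (exact permutation p = 0.00278). Without the 2 libraries farthest from the median of Chil4 r was 0.97, with the group means taken out it was 0.98, and after rescaling to the 75th percentile it was 0.97. Chil4 and Retnlb correlated with r = 0.89 (exact permutation, adjusted p = 0.0292) and rho = 0.96 (exact permutation p = 0.00278), and r was 0.87 without the 2 farthest libraries. Chil3 and its copy Chil4 correlated with r = 0.53 (exact permutation, adjusted p = 0.279) and rho = 0.39 (exact permutation p = 0.396). Chil1 and Chil3 correlated with r = 0.93 (exact permutation, adjusted p = 0.0260), and r was 0.44 without the 2 farthest libraries, on which the relation thus rested. A total of 9 of the 21 pairs had an adjusted p under 0.05 for r (exact permutation). For rho only Chil4 with Retnla, Chil4 with Retnlb and Retnla with Retnlb did (exact permutation). The share over pairs of other genes was not computed, so the count does not show a trait particular to the members. The permutations pooled OVA and Herb, so a difference between these groups also enters r and rho. All points of a library share its depth and composition.

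**Figure D4:**
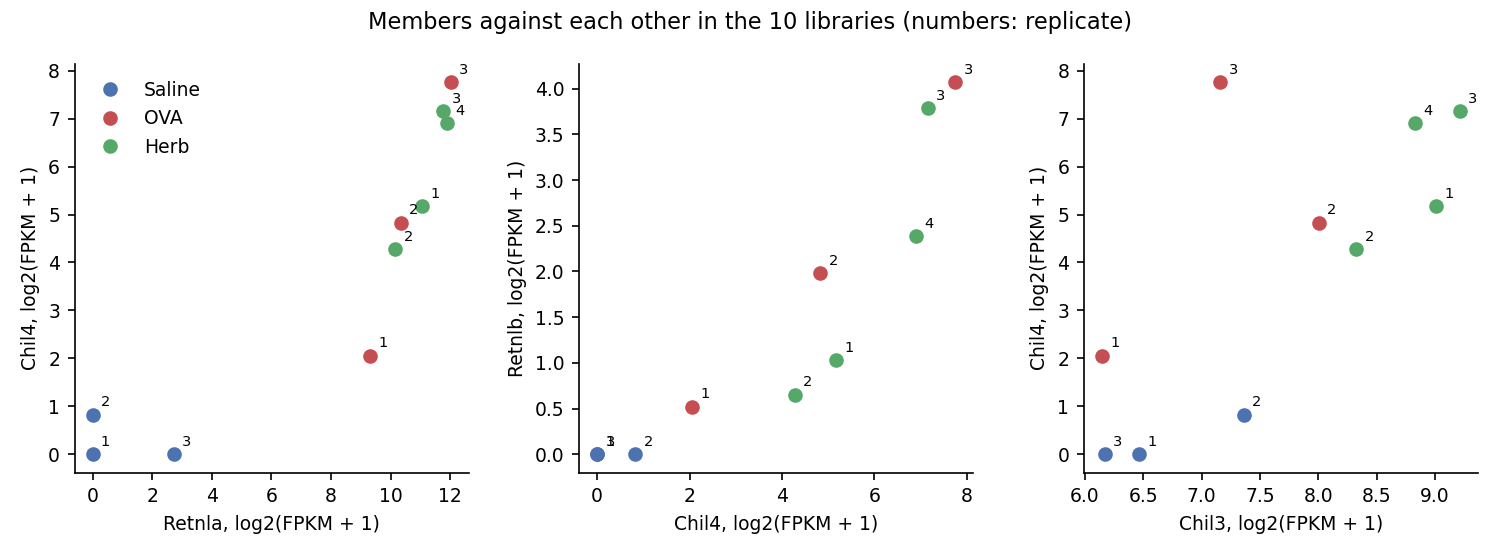
Levels of Chil4 against Retnla, Retnlb against Chil4 and Chil4 against Chil3 in the 10 libraries, each axis log2(FPKM + 1), with points coloured by group and numbered by replicate. The 7 exposed libraries order alike for Chil4 and Retnla (r = 0.98) and for Chil4 and Retnlb (r = 0.89) and less so for Chil3 and Chil4 (r = 0.53).

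The genes whose pattern over all 10 libraries was most like that of each member are given by Pearson r on log2(FPKM + 1) as a description, since points share depth and composition and many genes were searched. Nearest to Chil4 were Ccno (r = 0.99), a gene of multiciliated cells, Adam8 (r = 0.98), a membrane protease, and Clca1 (r = 0.98), a goblet cell product. Retnlb was nearest to Itln1 (r = 0.97), an intelectin of mucous cells, Inhba (r = 0.95), which encodes an activin subunit, and Scin (r = 0.94), which encodes an actin-severing protein. Retnla was nearest to Dna2 (r = 0.99), a DNA repair nuclease and helicase, Rasa4 (r = 0.98) and Mfsd7a (r = 0.97). Dna2 remained the nearest with the group means taken out (r = 0.95), although its group means were only 1.05, 2.37 and 2.43 FPKM in Saline, OVA and Herb. Chil3 and Chia1 shared Ect2, a cell division gene (r = 0.95 for each), beside Anln (r = 0.94), another gene of cell division, and Dffb (r = 0.93) for Chil3 and Metrnl (r = 0.97) and Rhbdl1 (r = 0.93) for Chia1. Chil1 was nearest to Hn1 (r = 0.99), Vat1 (r = 0.98) and Ctsb (r = 0.97), which encodes the lysosomal protease cathepsin B. Retnlg was nearest to Clic6 (r = 0.94), Rsph1 (r = 0.93), a gene of motile cilia, and Itih2 (r = 0.92).

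Other genes of the pathway were examined as lists. Relatives of the members, from the same glycoside hydrolase family or resistin itself, were scarce. Of 6 listed relatives 2 were tested, and Ctbs, a lysosomal enzyme that breaks down chitobiose, was at 5.07 ± 0.321 FPKM in Saline, 0.996 ± 0.378 in OVA (SD, n = 3 each) and 2.46 ± 0.741 in Herb (SD, n = 4). It was called lower in OVA than in Saline, higher in Herb than in OVA and lower in Herb than in Saline, whereas Chid1, a chitinase domain protein of lysosomes, was at 2.64 ± 0.434, 2.17 ± 0.410 and 3.21 ± 0.461 FPKM and was called only in Herb vs. OVA, as higher. The medians of the pair were -0.91, 0.60 and -0.31, and after rescaling Ctbs was called lower and Chid1 higher in both comparisons with Saline. Resistin (Retn) and Chil6 had group means of 0.101 FPKM or less.

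Of the proposed receptors and binding partners of these proteins, those tested had their lowest means in OVA. Of 7 listed 4 were tested, all 4 were called lower in OVA than in Saline (57.9% of all genes) and higher in Herb than in OVA (44% of all genes), and none was called in Herb vs. Saline. Their medians were -2.13, 1.33 and -0.57, beside -0.75, 0.48 and -0.27 for all genes, and after rescaling 2 were called lower in OVA vs. Saline and none was called in Herb vs. OVA. Without OVA replicate 1 none was called in Herb vs. OVA on the deposited scale either. Ager, the receptor RAGE of alveolar type 1 cells, was at 369 ± 52.9, 66.5 ± 38.8 and 159 ± 62.1 FPKM in Saline, OVA and Herb (SD). Lgals3 (galectin-3) was at 17.5 ± 5.91, 3.34 ± 2.86 and 11.5 ± 4.25 FPKM in the same order (SD). Cap1, a proposed resistin receptor, and Cd44, a hyaluronan receptor, had means of at most 5.34 FPKM in any group, and Il13ra2, the decoy receptor of IL-13, had means of 0.0379 FPKM or less.

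Genes of IL-4 and IL-13 signalling had counts of calls near those of all genes in OVA vs. Saline on the deposited scale. Of 13 listed 8 were tested, of which 4 (Jak2, Jak1, Stat6 and Il13ra1) were called lower, where 57.9% of all genes were, and none higher, where 3.28% of all genes were. In Herb vs. OVA 2 (Jak1 and Il13ra1) were called higher (44% of all genes), and in Herb vs. Saline 2 (Jak1 and Stat6) were called lower (22.7% of all genes). The medians were -1.14, 0.48 and -0.50, and after rescaling the calls were 1 higher and 1 lower in OVA vs. Saline and none in the other comparisons, with medians of -0.24, -0.04 and -0.17. Stat6 was at 10.6 ± 1.2, 3.75 ± 0.466 and 5.70 ± 1.74 FPKM in Saline, OVA and Herb (SD), and Il13ra1, a chain of the IL-13 receptor, at 9.45 ± 1.18, 3.24 ± 1.3 and 6.19 ± 0.736 FPKM (SD). The kinases Jak1 and Jak2 were lowest in OVA as well, at 14.1 ± 1.88, 3.63 ± 0.17 and 7.0 ± 1.6 FPKM for Jak1 and 12.4 ± 3.75, 5.69 ± 1.83 and 8.69 ± 1.24 FPKM for Jak2 (SD). The cytokines themselves, Il4 and Il13, had group means of at most 0.334 and 0.0899 FPKM and were not tested.

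Other genes of alternative macrophage activation went in both directions. Of 12 listed 10 were tested, and Arg1, Alox15 and Clec10a were called higher and Tgm2 lower in OVA vs. Saline. In Herb vs. OVA Tgm2 and Mrc1 were called higher, and in Herb vs. Saline Arg1, Alox15, Clec10a and Ccl22 were called higher and Tgm2 lower. These 5 calls ranged from 2, without Herb replicate 4, to 6 with single libraries left out. Of all genes 3.28% were called higher and 57.9% lower in OVA vs. Saline. The shares were 44% higher in Herb vs. OVA, and 3.32% higher and 22.7% lower in Herb vs. Saline. Arg1, Alox15, Clec10a and Ccl22 reached the minimum mean of 1 FPKM only through the exposed libraries. Arg1, the arginase that competes for arginine with nitric oxide synthase, was at 0.131 ± 0.115, 8.27 ± 9.60 and 11.0 ± 11.3 FPKM in Saline, OVA and Herb (SD). Mrc1, the mannose receptor, was at 21.8 ± 5.03, 15.7 ± 4.92 and 25.4 ± 2.88 FPKM (SD), and Tgm2, a transglutaminase that many lung cells also express, at 77.4 ± 6.87, 22.2 ± 4.73 and 40.6 ± 7.66 FPKM (SD). Socs2, a cytokine signalling inhibitor, was at 21.4 ± 3.25, 12.5 ± 3.38 and 13.3 ± 4.67 FPKM (SD) and was not called. The medians of the list were 0.67, 0.32 and 0.88, and after rescaling 5 were called higher and 1 lower in OVA vs. Saline, none in Herb vs. OVA, and 3 higher and 1 lower in Herb vs. Saline, with medians of 1.11, -0.11 and 1.00.

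Markers of the cells that can make these proteins moved in different ways. Genes of goblet cells summed to 0.515 to 4.60 FPKM in Saline, 21.2 to 948 FPKM in OVA and 44.7 to 723 FPKM in Herb, without overlap between Saline and the exposed groups. Of 7 tested, 2 were called higher in OVA vs. Saline (Clca1 and Fcgbp), none in Herb vs. OVA and 2 in Herb vs. Saline (Clca1 and Agr2), with medians of 1.87, 0.53 and 2.45. Of all genes 3.28%, 44% and 3.32% were called higher in these comparisons. Clca1, Fcgbp and Agr2 reached the minimum mean of 1 FPKM only through the exposed libraries. With single libraries left out the goblet cell counts were 1 to 3 in OVA vs. Saline and 1 to 5 in Herb vs. Saline, with 5 without OVA replicate 3. Clca1 ranged from 0 to 0.0544 FPKM in Saline, from 15.8 to 788 FPKM in OVA and from 34.5 to 596 FPKM in Herb, and Muc5ac was listed at 0 in all Saline libraries. The part of these cells in the increase of Retnla, Chil4 and Retnlb was not tested.

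Genes of alveolar macrophages, a source of Chil3, summed to 120 to 170 FPKM in Saline, 30.4 to 60.8 FPKM in OVA and 69.4 to 91.8 FPKM in Herb. Of 10 tested, 7 were called lower in OVA vs. Saline, 5 higher in Herb vs. OVA (1 without OVA replicate 1) and 4 lower in Herb vs. Saline (1 without Saline replicate 2), with medians of -1.59, 0.73 and -0.84. Of all genes 57.9%, 44% and 22.7% were called in these directions. Genes of macrophages and monocytes in general summed to 1195 to 1348, 95.5 to 338 and 381 to 926 FPKM in Saline, OVA and Herb, of which Lyz2 (lysozyme) held most. Of 6 tested, 2 were called lower in OVA vs. Saline, 2 higher in Herb vs. OVA, and 1 higher and 1 lower in Herb vs. Saline (none without Saline replicate 1 or 2). Chil3 in Herb, at 4.38 times its Saline level, thus stood beside alveolar macrophage sums below those of Saline on the deposited scale, and their part in its level was not tested. Of 9 neutrophil genes tested, 1 was called higher and 4 lower in OVA vs. Saline, 4 higher in Herb vs. OVA and 2 higher in Herb vs. Saline. The shares of all genes were 3.28%, 57.9%, 44% and 3.32% in the same order. Ltf and Ngp, the neutrophil genes called higher against Saline, reached the minimum mean of 1 FPKM only through exposed libraries.

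Eosinophil genes were scarce, summing to 3.19 to 4.64, 1.77 to 3.45 and 2.01 to 4.70 FPKM in Saline, OVA and Herb. In Saline Siglecf held most of the sum, and its means were 3.84, 0.931 and 1.67 FPKM in the 3 groups. The means of Prg2, Il5ra, Ccr3, Epx and Ear6 were instead higher in OVA than in Saline, at 1.26 FPKM or less. These 5 genes were below the minimum for testing. Siglecf, which alveolar macrophages also carry, was the 1 gene tested and was called lower in both comparisons with Saline on the deposited scale, but in Herb vs. Saline neither after rescaling (adjusted p from limma = 0.0768) nor without Saline replicate 1 or 2. Among the granule proteins that define eosinophils, Prg2 was listed at 0 in all Saline libraries and at up to 2.14 FPKM in exposed libraries, Epx was at 0.114 FPKM or less, and Prg3 was listed at 0 everywhere. Club cell genes summed to 13946 to 24307 FPKM in Saline, 2912 to 5755 FPKM in OVA and 8384 to 13015 FPKM in Herb. Of 6 tested, 4 were called lower in OVA vs. Saline, 2 higher in Herb vs. OVA and 2 lower in Herb vs. Saline. For alveolar type 2 cells 6 of 8 were called lower, 5 higher and 5 lower in the same comparisons, and for alveolar type 1 cells, which summed to 675 to 808, 53.3 to 164 and 180 to 389 FPKM, 5 of 5 were called lower, 4 higher and 3 lower. For all genes the shares called in these directions were 57.9%, 44% and 22.7%. No gene of stomach or salivary gland reached the minimum for testing. After rescaling to the 75th percentile, the calls in Herb vs. OVA were 1 neutrophil gene, as higher, and none in the other marker lists. In OVA vs. Saline they were then 3 goblet cell genes higher, 6 alveolar macrophage, 2 club cell, 5 alveolar type 2 and 4 alveolar type 1 genes and the eosinophil gene Siglecf lower, and 1 higher and 1 lower each for neutrophils and for macrophages and monocytes. In Herb vs. Saline they were 1 goblet cell gene (Clca1) and 2 each of neutrophils and of macrophages and monocytes higher, 2 alveolar macrophage, 4 alveolar type 2 and 2 alveolar type 1 genes lower, and none for club cells and eosinophils. With single libraries left out on the deposited scale, the calls in Herb vs. Saline ranged from 1 (without Saline replicate 2) to 5 for alveolar type 2 cells, from 2 to 5 (without OVA replicate 3) for alveolar type 1 cells, and from 0 (without Saline replicate 2 or 3 or Herb replicate 1, 3 or 4) to 4 (without Herb replicate 2) for club cells. Without OVA replicate 1 the calls in Herb vs. OVA were 2 for alveolar type 1 cells and 0 for club cells.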

How the data were processed

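RNA-seq libraries of lung tissue from 10 mice (Saline 3, OVA 3, Herb 4, grouped by the sample labels) were analysed from 1 table of the whole series. The authors trimmed the reads, mapped them to mm10 and deposited FPKM per transcript, and neither counts nor totals of reads entered. The submitters' processing notes name cutadapt 1.10, HISAT2, StringTie 1.3.3b and edgeR 3.16.5, and the study ran edgeR on counts for its own comparisons. The study's methods name a stranded mRNA kit and read pairs of 76 bases. The table also holds 31605 assembled models without a symbol. They entered the total behind the share held by protein-coding RefSeq rows and no test of a gene. Depth was estimated from the position of 1 fragment in FPKM times length at values under 0.1 FPKM, over 18333 genes with 1 row.

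Rows were summed per symbol, and limma 3.58.1 in R 4.3.3 (lmFit and eBayes with an intensity trend, 3 group means, all 10 libraries) was applied to log2(FPKM + 1) of the 11205 symbols with a mean of at least 1 FPKM, with Benjamini-Hochberg adjustment over all of them and a call at 0.05. The same fit on 30194 single rows was an alternative. Fold changes on this scale understate the change of low genes. Of the 8 members 7 passed the filter on the mean, Chil4 and Retnlb through the exposed libraries. Ratios and correlations were tested with two-sided exact permutation tests. Alternatives were other scalings, another pseudocount, no filter, no trend, 2 groups only, the replicate number as a block and leaving out each library. The fit was tested on simulated data in which few genes changed and no shift was shared by most genes. The real libraries have such a shift, so this test does not bear on the choice of scaling.

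All members are named. Up to 4 genes per list with the highest mean FPKM are named with their values, as are the 3 genes most alike each member, and further genes of the lists were named after their values were seen. The members and lists were chosen with earlier results of these data known. Mice are separate animals, so that p-values measure the spread between mice within 1 experiment. Sequences and positions are those of RefSeq on GRCm38.p6, whose promoter windows matched 7 of the 8 members. The other steps ran in Python 3.11.15 (Biopython 1.88, scipy 1.17.1, numpy 2.4.6, matplotlib 3.10.9, pandas 2.3.3).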

Additional observations from a re-analysis of the deposited data

How the results depend on the processing

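Over 19 alternatives for 7 members in 3 comparisons, 356 of 399 values kept their direction and side of the threshold, 16 passed it in addition, 12 no longer passed it and 15 changed sign. With no filter, no trend, 2 groups only, single rows or a library outside the comparison left out, the fold change could not differ. Direction was thus fixed in advance there, and only the adjusted p could move. The members called in OVA vs. Saline (3) were 5 after quantile normalization, where Chil1 was called higher instead of lower. They were 3 to 5 when single libraries were left out, with 5 without OVA replicate 1. The 2 in Herb vs. OVA were 0 by limma under rescaling to the 75th percentile (1 at an unadjusted p under 0.05), scaling to the protein-coding sum and quantile normalization (0 at an unadjusted p under 0.05 in each), and 1 to 3 when single libraries were left out. The 4 in Herb vs. Saline were 3 to 4 when single libraries were left out and 5 under scaling to the protein-coding sum and quantile normalization, which added Chil1, and with a pseudocount of 0.1, which added Retnlb. The block by replicate number gave 1 member in Herb vs. OVA, where Chil1 had an adjusted p of 0.0506 (limma), added Retnlb in OVA vs. Saline and lost Chia1 in Herb vs. Saline. Deviations of same-numbered libraries correlated with r from -0.009 to 0.095, so the numbers were not taken as pairs. The block gave 6603, 4040 and 1342 calls over all genes. Single rows gave the same members as gene sums, with 13331, 9786 and 2443 calls over 30194 rows, beside 6853, 4982 and 2921 over genes.

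OVA vs. Saline changed sign to 0.50 (protein-coding sum) and 0.84 (quantile) for Chil1, to -0.015 for Chil3 without OVA replicate 2, and for Retnlg (-1.19 to 0.10 with single libraries left out) to 0.44 (75th percentile), 0.92 (protein-coding sum), 0.88 (quantile), 0.04 without OVA replicate 1 and 0.10 without Saline replicate 2. Herb vs. OVA changed sign to -0.078 for Chia1 (quantile), -0.41 for Chil4 (up to 2.44 otherwise) without OVA replicate 1, -0.21 for Retnla (protein-coding sum), and for Retnlb (from -1.06) to 0.088 without Herb replicate 1, 0.21 without Herb replicate 2 and 0.72 without OVA replicate 3. Retnlg in Herb vs. Saline became -0.16 without Saline replicate 1 and 0.99 without Saline replicate 2. The log2 ratio of Chil4 to Chil3 in Herb vs. OVA ranged from -1.69 to 0.84 with single libraries left out, and that of Chia1 to Chil3 in OVA vs. Saline became -0.047 without OVA replicate 3 and -0.032 without Saline replicate 2 (highest 0.62). None of these sign changes was tested for a cause. The members' share of FPKM was 0.166%, 4.68% and 4.0% over protein-coding rows alone, and with single libraries left out its mean ranged from 0.117% to 0.138% in Saline, 1.36% to 3.33% in OVA and 2.42% to 3.34% in Herb. With single libraries left out, calls over all genes ranged from 894, without Saline replicate 2, to 3254 in Herb vs. Saline and from 3221, without OVA replicate 1, to 5070 in Herb vs. OVA. Among the 10 tested genes of alternative macrophage activation, the 4 calls in OVA vs. Saline then ranged from 2, without OVA replicate 3 or Saline replicate 3, to 7, without Herb replicate 2.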
